A study of Caenorhabditis elegans with 2 samples.

Results

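The polymerase peaks of the X chromosome of Caenorhabditis elegans are described here: all 3450 peaks on X among the 30000 of the pooled list on genome build ce11, with the 4362 X peaks of replicate 1 and the 2635 X peaks of replicate 2, each out of 30000. They were chosen by chromosome alone, without regard to signal. The signal of a peak is the authors' score from their peak caller, used below only to rank peaks within a list, and its summit is the base of highest signal named for it. Peaks among the 2082 of highest signal in their own list are called strong. In the pooled list these are exactly the peaks that passed the authors' reproducibility filter, an irreproducible discovery rate (IDR) analysis, and 201 of them lie on X.

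The samples were whole animals of the wild-type strain N2 at the last larval stage, L4, labelled as male and female animals pooled, and no treatment, allele or transgene is given. DNA bound by AMA-1, which forms the catalytic core of RNA polymerase II, was pulled down by antibody and sequenced (ChIP-seq). There was 1 group of 2 biological replicates and no contrast between conditions, so the values below are descriptions with the value in each replicate, and no test could be made. Wilson 95% intervals cover the counting of peaks or genes only, since read depth is unknown, and in whole animals fewer cells of a type with polymerase at a gene and less polymerase per cell cannot be told apart.

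RNA polymerase II transcribes all protein-coding genes and many small RNA genes, and in ChIP-seq it is usually found at gene starts, across the bodies of busy genes and near their ends. In C. elegans, hermaphrodites have a pair of X chromosomes and males have a single one, and a condensin-based dosage compensation complex binds both X chromosomes of hermaphrodites and lowers their transcription. In the germline the X is kept largely silent, germline-expressed genes are rare on it, and genes for neurons and muscle are common.

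Because the highest X peaks lay at non-coding genes, the + strand of ce11 around 4 of these summits is shown first, at C30E1.9 (chrX:16929969-16930089), tts-1 (chrX:1504554-1504674), W05H9.3 (chrX:6252297-6252417) and mir-54 (chrX:13145098-13145218), each with the summit in the middle of 121 bases. Capitals mark the word GAGAGA on either strand, which stood near strong X summits more often than along the chromosome (values below).
C30E1.9: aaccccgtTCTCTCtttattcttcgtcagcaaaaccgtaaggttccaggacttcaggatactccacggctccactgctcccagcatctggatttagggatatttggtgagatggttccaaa
tts-1: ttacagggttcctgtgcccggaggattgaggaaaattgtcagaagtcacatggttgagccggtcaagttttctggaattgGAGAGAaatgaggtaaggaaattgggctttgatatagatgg
W05H9.3: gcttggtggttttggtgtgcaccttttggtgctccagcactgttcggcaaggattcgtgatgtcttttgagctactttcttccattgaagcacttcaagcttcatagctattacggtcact
mir-54: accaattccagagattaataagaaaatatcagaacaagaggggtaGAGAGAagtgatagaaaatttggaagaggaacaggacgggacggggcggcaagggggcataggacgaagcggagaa
The word is in 3 of these 4 windows and not in that of W05H9.3. It is also not in the 121 bases at the summit of X rank 4, a further one of C30E1.9 that is not shown. Over all 201 strong X summits it was in 28.9% of windows of 201 bases, so these 4 do not stand for strong X summits in general. The GC content of the 4 windows was 47.9%, 44.6%, 46.3% and 47.1%, in the same order.

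The mir-54 summit lay just beyond the 5′ ends of a run of microRNA genes read from the − strand, mir-54, mir-55 and mir-56, inside an intron of F09A5.3. Their mature sequences of the 3′ arm, from RefSeq on WBcel235 and written as DNA with the seed (bases 2 to 8) in capitals, are shown because all share 1 seed and the same strongest summit.
mir-54: tACCCGTAatcttcataatccgag
mir-55: tACCCGTAtaagtttctgctgag
mir-56: tACCCGTAatgtttccgctgag
These lie at chrX:13145011-13145034, chrX:13144842-13144864 and chrX:13144706-13144727. They belong to the miR-51 family, whose members act redundantly in the embryo.

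The strongest start of a named protein-coding gene was that of act-4, an actin gene. The 200 bases before its annotated start (chrX:4960421-4960620, + strand) hold a TATAAA word, in capitals.
act-4: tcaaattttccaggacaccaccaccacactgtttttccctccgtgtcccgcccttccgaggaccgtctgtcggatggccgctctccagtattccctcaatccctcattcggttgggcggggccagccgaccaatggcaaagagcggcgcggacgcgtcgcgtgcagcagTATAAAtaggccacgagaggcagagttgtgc
TATAAA, read on either strand from 250 bases before to 50 bases after the start, was in 37.97% of the start windows of X coding genes with a strong summit and in 36.8% of those with none.

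X carried fewer polymerase peaks than its size. It makes up 17.7% of the length of the 6 chromosomes and holds 2731 of 19973 protein-coding genes (13.7%). It held 11.5% of the pooled peaks (interval 11.1 to 11.9) and 9.65% of the strong ones (201 of 2082, 8.46 to 11). Per megabase that is 11.3 strong peaks on X against 22.8 on the autosomes, and 194.7 against 321.6 peaks of any strength. Of the autosomes, V came nearest with 17.5 strong peaks per megabase and III was highest with 29.6.

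The shortfall was larger among the strongest peaks than below them. X held 9.37% of the 3000 strongest pooled peaks, the lowest share of 10 rank bins, and between 10.7% and 13.1% of the peaks in the other 9. The first bin was also the lowest in each replicate, at 12.6% in replicate 1 and 7.27% in replicate 2. Of its own peaks, 5.83% on X were strong (5.09 to 6.66) against 7.09% on the autosomes (6.78 to 7.4). These shares were 6.03% and 7.09% for replicate 1, then 5.27% and 7.1% for replicate 2. The median signal of the strong X peaks was close to that of strong autosomal ones: 63.04 against 62.72 in the pooled list, 39.19 against 40.98 in replicate 1 and 30.01 against 30.47 in replicate 2. Their highest was 547.2 against 897.6. At the lower edge, the last strong X peak had a signal of 46.95 and the next X peak 46.81.

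**Figure D1:**
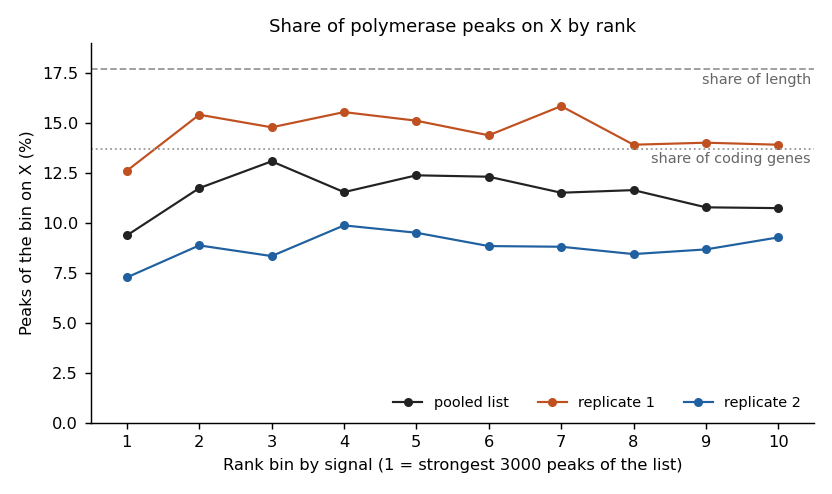
Percent of peaks on X in each of 10 bins of 3000 peaks ranked by signal, for the pooled list and both replicates; the dashed line is the share of X in chromosome length (17.7%) and the dotted line its share of protein-coding genes (13.7%). Replicate 1 lies above the pooled list and replicate 2 below it in all 10 bins, and the first bin is the lowest of each list.

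The replicates differed more on X than on any autosome. Replicate 1 had 4362 X peaks (14.5% of its list) and replicate 2 had 2635 (8.78%), a ratio of 1.66, while the same ratio on the 5 autosomes ran from 0.883 to 1.05. Among strong peaks the counts were 263 (12.6%) and 139 (6.68%), a ratio of 1.89 against 0.784 to 1.18 on the autosomes. The mean share of strong peaks on X was 9.65% ± 4.21 (SD, n = 2), and both replicates lay below the share of X in length and in coding genes. The interval of replicate 1 (11.3 to 14.1) covers the share of coding genes, though. Of peaks of any strength, replicate 1 had a share on X above that of coding genes (14.5% against 13.7%) and below that of length. The excess of replicate 1 was present at every kind of site, with ratios of X peaks of 1.50 at gene starts, 1.61 in gene bodies, 2.04 at gene ends and 1.70 outside genes. These ratios were not set against those of the autosomes, so their order is not one of X alone. Of all peaks of a class, X held 11.5% in replicate 1 and 6.35% in replicate 2 at starts. These shares were 14.9% and 9.52% in bodies, 15.2% and 7.61% at ends, and 18.1% and 13.8% outside genes. The labels give both replicates the same stage and the same pooling of sexes, and the reason for the difference was not tested.

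Protein-coding genes on X had a strong summit at the start less often than genes elsewhere. Within 500 bp of the outermost annotated 5′ end, 79 of 2731 X genes had one (2.89%, 2.33 to 3.59), against 6.0% of autosomal genes (5.65 to 6.36) and 5.57% of all 19973 coding genes. The share on X was 2.82% in replicate 1, where 4.55% of all coding genes had one, and 2.34% in replicate 2, where 5.9% did. For any pooled peak at the start the shares were 17.8% on X and 32.7% on the autosomes, with a background of 30.7% over all coding genes. Chromosome by chromosome, X was lowest in the pooled list and in each replicate, but V was close, with 3.66% (3.18 to 4.22), an interval that overlaps that of X. Chromosome III was highest, at 8.71%.

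**Figure D2:**
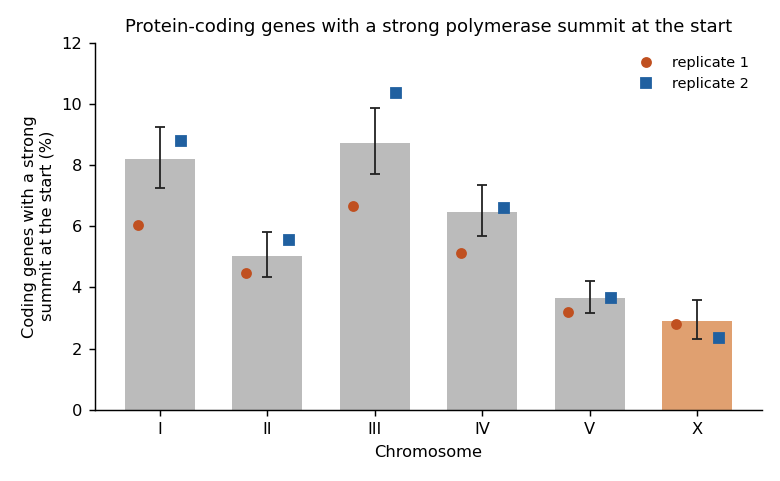
Percent of protein-coding genes of each chromosome with a strong summit within 500 bp of the start; bars are the pooled list with 95% Wilson intervals, circles replicate 1 and squares replicate 2. X has the lowest bar (2.89%) and the lowest point of each replicate, and V is next (3.66%).

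The difference between X and the autosomes was also computed over fewer genes. With the genes of the lists of protein synthesis, energy, protein turnover, RNA and germline left out, 2.66% of 2707 X genes and 5.39% of 16814 autosomal genes had a strong summit at the start. Among genes with no other coding start within 1000 bp, the shares were 2.53% on X and 4.64% on the autosomes.

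Strong X summits were spread differently over genes than autosomal ones. Each was given 1 class, tried in the order start, end, body and outside, where start and end mean within 500 bp of that of a protein-coding gene. Body means inside any annotated gene, coding or non-coding, except genes of piRNAs, a class of small RNA. Summits near the starts of non-coding genes, such as those of C30E1.9, tts-1, W05H9.3 and mir-54, were therefore counted in bodies. The body share is thus not only that of summits far inside genes. Of 201 on X, 74 lay at a start (36.8%, 30.5 to 43.7), 39 at an end (19.4%, 14.5 to 25.4), 60 in a gene body (29.9%, 23.9 to 36.5) and 28 outside (13.9%, 9.82 to 19.4). On the autosomes the shares were 47.7%, 24.3%, 19.1% and 8.82%. Starts were thus a smaller part and gene bodies a larger part on X than on the autosomes in the pooled list. The replicates placed the X shares at 28.5% and 42.5% for starts and at 38.8% and 25.9% for bodies (replicate 1 first), so the start share on X in replicate 2 was above the autosomal share in replicate 1, 40.7%. Within each replicate the X share was below the autosomal one for starts (28.5% against 40.7%, and 42.5% against 50.9%) and above it for bodies (38.8% against 24.6%, and 25.9% against 18.8%). When a summit near both a start and an end was counted as an end, the start shares became 24.4% on X and 22.1% on the autosomes, which turns their order.

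**Figure D3:**
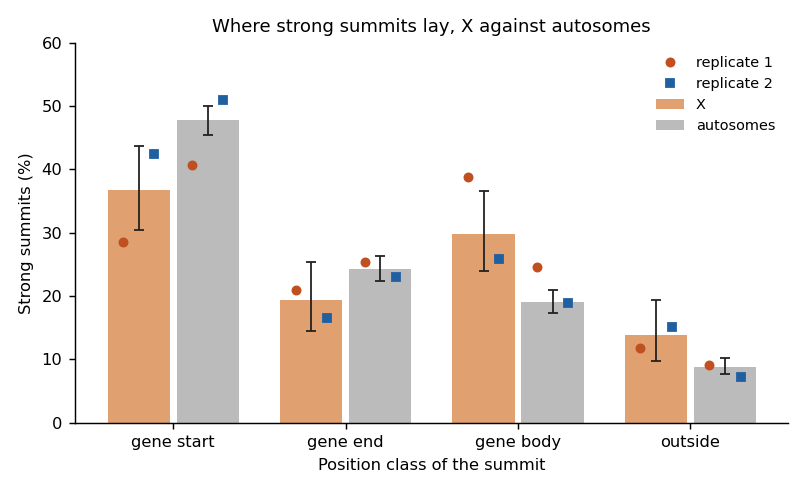
Percent of strong summits in each position class on X (orange) and on the autosomes (grey); bars are the pooled list with 95% Wilson intervals, circles replicate 1 and squares replicate 2. The bar for X is lower at gene starts (36.8% against 47.7%) and higher in gene bodies (29.9% against 19.1%), and the replicates of X stand apart, at 28.5% and 42.5% for starts.

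By annotated feature, 80 of the 201 strong X summits lay in no gene, 45 in introns, 36 in coding exons, 25 in exons of non-coding genes, 8 in 5′ UTRs and 7 in 3′ UTRs. Among the 3249 weaker X peaks, exons of non-coding genes held 4.31% of summits against 12.4% of the strong ones, and stretches with no gene held 26.3% against 39.8%. Coding exons and introns went the other way, with 26.7% and 32.6% of the weaker summits against 17.9% and 22.4% of the strong ones.

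Non-coding genes led the list. Of the 25 strongest X peaks, 12 were assigned to a non-coding gene and 13 to a protein-coding one, by the nearest start within 500 bp, else the gene holding the summit, else the nearest coding gene end. Of all 201 strong X peaks, 152 were assigned to a protein-coding gene. The 25 peaks belong to 19 distinct genes, since genes such as C30E1.9 had several. By this rule a summit in a coding gene can go to a non-coding gene with a nearer start, as for F11C7.9, whose summit lay in osm-11. All 25 matched one of replicate 1's own 2082 strongest summits within 100 bp, and 23 matched one of replicate 2's.

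C30E1.9, annotated as a non-coding RNA gene of 14770 bp (chrX:16929914-16944683, + strand), had the highest signal on X and 6 strong summits within it. The first, at base 16930029, stood close to its start with a signal of 547.2, ranked 8 in replicate 1 and 7 in replicate 2. Others stood at 1057 bp (339.3), 1609 bp (185.1) and 14185 bp (120.7), the last near the far end. These 4 were strong in both replicates, at ranks 12 and 80, 48 and 141, and 174 and 506 for the last 3, with replicate 1 first. tts-1, a long non-coding RNA known to associate with ribosomes in long-lived mutants, had its summit in its exon 227 bp from the start (374.1, ranks 18 and 17). W05H9.3, a non-coding gene of 1512 bp, had one 83 bp from its start (361.9, ranks 19 and 15). The 3 top genes of X were therefore also among the highest peaks of the genome in both replicates.

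The mir-54 summit followed with a signal of 228.2, ranks 35 and 73. A lower strong summit, at base 13144627 in an intron of F09A5.3, also stood within 500 bp of these microRNA starts (73.14, ranks 311 and 11592). Each gene was counted by its strongest summit. Because mir-54, mir-55, mir-55b and mir-56 start within 500 bp of the mir-54 summit, the 10 X microRNA genes with a strong summit rest on 7 summits. The other 6 were mir-8196a (97.55), mir-239a (89.66), mir-62 (68.03), mir-81 (59.27), mir-239b (51.29) and mir-47 (48.71). Some of these summits lay in or at another gene: that counted for mir-239a fell in an exon of the snoRNA gene C34E11.20, and mir-62 lies inside ugt-50. Of the 74 microRNA genes on X, 13.5% had a strong summit at the start (7.51 to 23.1), against 13.9% of the 187 on the autosomes. Annotated ncRNA genes did so at 54 of 2520 on X (2.14%) against 4.96% on the autosomes, snoRNA genes at 3 of 33 (9.09%) against 22.04%, and tRNA genes at 3 of 276 (1.09%) against 3.27%. For lincRNA genes the counts were 1 of 38 on X (2.63%) and 3 of 156 on the autosomes (1.92%). The microRNA shares were near each other for strong pooled summits: for any pooled peak they were 29.7% on X and 46.5% on the autosomes, and the replicates' own strong peaks gave 9 and 7 of 74 on X against 27 and 27 of 187.

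Protein-coding genes with the strongest starts were few and of mixed kinds. H40L08.9, a gene without a given role, had a summit of 211.6 at its start, ranked 23 in replicate 1 and 1675 in replicate 2. It also counts for H40L08.3, which starts nearby. A neighbouring summit at H40L08.8 (178) lay inside H40L08.2, ranked 63 and 211. At act-4 the summit lay in a coding exon 55 bp from the start with a signal of 194.2, and its ranks, 77 and 84, were close. mdl-1, which encodes a MAD-like partner of the MAX-type transcription factors, stood at 171.1 (ranks 127 and 77). Another such factor, mxl-3, had 101.3 at its start (770 and 134). The summit at 155.2 assigned to the non-coding gene F11C7.9 lay in an intron of osm-11, which encodes a secreted Notch co-ligand, 247 bp from that gene's start (53 and 497). In all, 14 of the 79 genes had a signal of 100 or more, and the median of the 79 was 61.43. The 79 genes rest on 72 distinct summits, and 13 of them share theirs. The H40L08 genes among the 14 rest on the 2 summits of 211.6 and 178.

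The gene cah-4, which encodes a carbonic anhydrase, had 5 strong summits around it within 3104 bp. From upstream to downstream their signals were 165.4, 126.4, 93.35, 152 and 199.3. In replicate 1 all 5 were strong, at ranks 186, 79, 148, 85 and 27. In replicate 2 the first, the fourth and the last were strong, at ranks 58, 361 and 1137, the third stood at 13152, and the one at the start had no summit within 100 bp. The order of the peaks was thus not the same in the replicates, with the upstream summit lowest in replicate 1 and highest in replicate 2.

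A group of 5 strong summits also covered gpd-3 and mai-1, the ends of a known operon with gpd-2 between them. gpd-2 and gpd-3 encode the glycolytic enzyme glyceraldehyde-3-phosphate dehydrogenase, and mai-1 an ATPase inhibitor homolog. The signals were 86.43 beyond the end of gpd-3, 125.6 and 77.56 near its start, 96.94 in an intron of mai-1 and 69.94 at the start of mai-1. All 5 were strong in both replicates, with ranks from 143 to 1496 in replicate 1 and from 416 to 1582 in replicate 2. gpd-2 itself had only a weaker summit at its start (36.49).

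Long genes with many internal summits made up part of the gene body class. lin-14, a heterochronic gene that times larval development and a target of the lin-4 microRNA, held 8 strong summits in 20312 bp, all between 47.07 and 68.8. Of these, 7 were among replicate 1's strongest and 0 among replicate 2's, where their ranks ran from 2088 to 16367 and 1 had no match. unk-1, ZK470.2 and scd-1 held 5 each in the pooled list, all between 50.01 and 105.6. Of these 5, all matched a strong summit of replicate 1 in each gene, while replicate 2 had a strong match for 2 at unk-1, 2 at ZK470.2 and 1 at scd-1. Counted in its own list instead, replicate 2 had 5 strong summits inside ZK470.2, against 6 in replicate 1. sams-1, which encodes S-adenosylmethionine synthetase, held 3 (98.36, 66.04 and 50.05), strong in replicate 1 at ranks 153, 500 and 732, while in replicate 2 only the last had a match, at rank 20194. The strong pooled summits of these 5 genes were thus more often strong in replicate 1. Those of C30E1.9 were not, with 5 of 6 strong in replicate 1 and 6 of 6 in replicate 2.

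Strong X summits often stood close together. Joined wherever neighbours lay at most 5000 bp apart, the 201 formed 131 groups, of which 92 were single summits, 26 were pairs and 13 held 3 or more. Those 13 groups held 57 summits (28.4%). Along the chromosome, cut into 3 equal lengths, the left, central and right parts held 52, 76 and 73 strong summits, against 871, 976 and 884 coding genes. Replicate 1 gave shares of 27%, 36.5% and 36.5%, while replicate 2 gave 34.5%, 29.5% and 35.97%. The low share on the left in the pooled list was thus seen in replicate 1 and not in replicate 2.

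**Figure D4:**
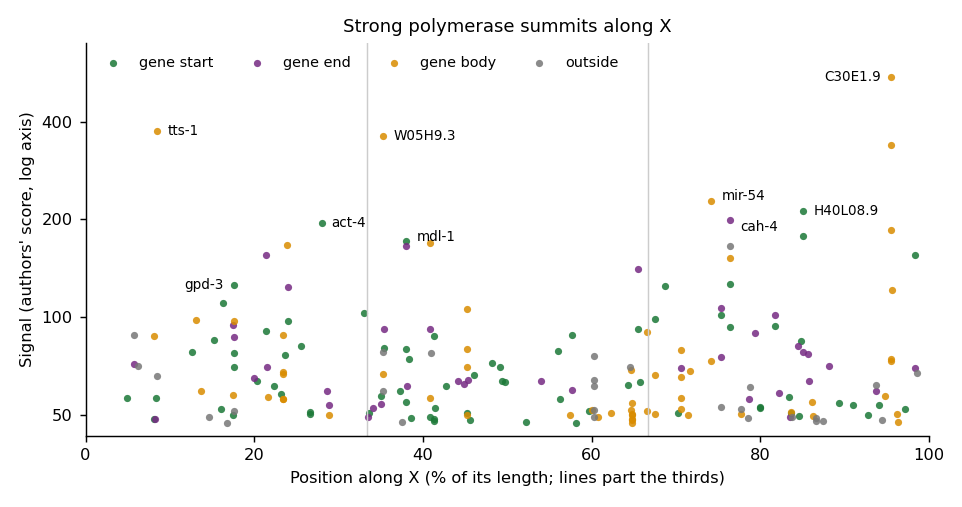
Signal (authors' score, log axis) of the 201 strong X summits of the pooled list against position along X in percent of its length, coloured by position class; grey lines part the 3 equal lengths. The highest points are summits in non-coding genes (C30E1.9 at 547.2, tts-1 at 374.1 and W05H9.3 at 361.9), and columns of points are groups such as those at cah-4 and lin-14.

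Matching summits within 100 bp showed how far each replicate carried the strong X peaks. Of the 201, 77.6% (71.4 to 82.8) matched one of replicate 1's strongest and 47.3% (40.5 to 54.2) one of replicate 2's, against 66.1% and 61.3% of autosomal ones. Both matched at 64 summits (31.8%), replicate 1 alone at 92, replicate 2 alone at 31 and neither at 14 (6.97%). In the full lists of 30000 the matches rose to 96.5% and 84.1%. The median rank of the X summits with a match was 996.5 in replicate 1 and 1838 in replicate 2, while autosomal ones had 1143 and 1138.

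The gap between the replicates was wider in gene bodies and at gene ends than at gene starts or outside genes. At gene starts 71.6% of strong X summits were among replicate 1's strongest and 56.8% among replicate 2's. In gene bodies these shares were 88.3% and 38.3%, at gene ends 84.6% and 43.6%, and outside genes 60.7% and 46.4%. No autosomal shares by class are set beside these, so the pattern is not shown to be one of X alone. Of the 79 coding genes with a strong start, 29 were strong in both replicates, 45 in 1 and 5 in neither, and 73 had a peak of some strength at the start in both.

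**Figure D5:**
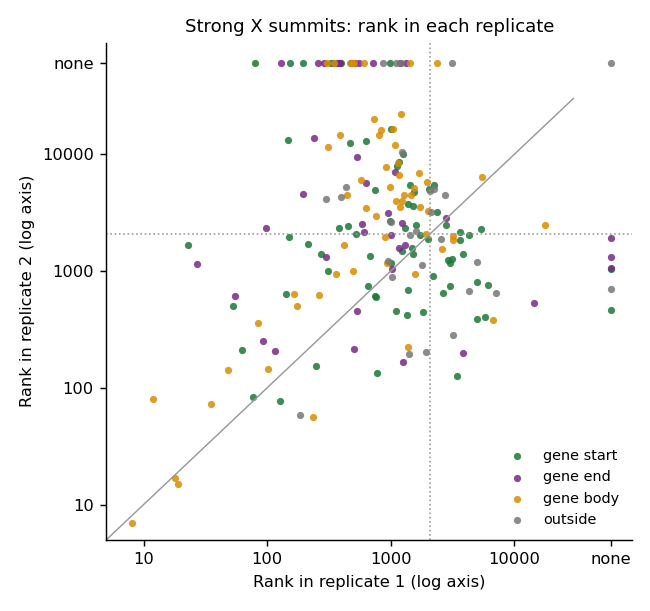
Rank of each strong X summit of the pooled list in replicate 1 and in replicate 2 (log axes, best summit within 100 bp; "none" is no summit), coloured by position class; the line is equal rank and dotted lines mark rank 2082. More points lie above the line than below it, 140 of the 201 summits being ranked higher in replicate 1.

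At 43 strong X peaks the rank percentiles differed by more than 50 points, 36 of them higher in replicate 1 and 7 in replicate 2. The 5 widest gaps were all at summits ranked in replicate 1 and with no match in replicate 2. They were the summit at the start of cah-4 (rank 79), both summits of the cuticle collagen gene col-166 (129 and 194) and the start of sams-1 (153). The last (258) lay in a coding exon of ucr-2.2, which encodes a subunit of mitochondrial complex III. It was classed as a gene end because the end of another cuticle collagen gene, col-41, lies within 500 bp. No match means no summit within 100 bp: within 500 bp of their starts, cah-4 and sams-1 had weaker summits in replicate 2 (ranks 7879 and 4227). The linker histone gene his-24 (93.49) had rank 331 in replicate 1 and no summit within 500 bp of its start in replicate 2. In the other direction were serp-1.1 (rank 461 in replicate 2), T03G6.7 (704), F38E9.8 beside twf-2 (1047), the small heat shock protein gene hsp-25 (1054), apl-1, the amyloid precursor-like gene (1321), and H01A20.4 (1902), each without a match in replicate 1, and C30G4.4, ranked 17612 and 2466. None of these 7 exceeded a pooled signal of 58.37, while those of replicate 1 reached 126.4. Within 500 bp of their starts, serp-1.1 and twf-2 had weaker summits in replicate 1 (ranks 10882 and 4485).

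Of the lists of genes that most cells use, several had X members with a strong start and others had none, all on counts of 6 genes or fewer. Against 2.89% of all X coding genes, both X ribosomal protein genes had one, rpl-11.2 (78.05) and rpl-25.1 (51), as did 44 of 78 on the autosomes. Neither was steady: rpl-11.2 had rank 343 in replicate 1 and no summit in replicate 2, and its summit was shared with the non-coding gene linc-78, while rpl-25.1 ranked 2227 and 5441. Of 3 vacuolar ATPase genes, vha-12 (76.08) and vha-20 (52.83) were strong and vha-15 (39.56) was not. Of 6 oxidative phosphorylation genes, sdha-1, the flavoprotein subunit of complex II (72.29), and asg-2, an ATP synthase subunit g homolog (48.92), were strong, the latter by a summit shared with the start of glr-6, a glutamate receptor gene of neurons. Of 3 glycolysis genes, gpd-3 was. None was strong among 3 translation factor genes, 5 genes of RNA polymerase II and general factors, 1 constitutive chaperone gene and 1 splicing factor gene. No proteasome or aminoacyl-tRNA synthetase gene of the lists, of 33 and 31, lies on X.

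In the intestine list, the aspartyl protease gene asp-3 (74.36, ranks 1804 and 447) and the cathepsin B-like gene cpr-6 (59.07, ranks 2628 and 644) were strong of 6 on X, both ranked higher in replicate 2. Of the others in that list, asp-4 (8.604) and elt-2 (8.412) had weaker summits, and elt-4 and pept-1 had none. Over all X coding genes 2.89% had a strong start. Outside the list, the saposin-like genes spp-5 (87.23, ranks 1104 and 458) and spp-2 (48.41, ranks 4258 and 2014) also had strong starts. act-4 was the only one of 11 body wall muscle genes. col-166 was the only one of 30 cuticle collagen genes in the pooled list, with 3 in replicate 1 and 1 in replicate 2. Of 5 X vitellogenin genes, vit-2 had a weaker summit (36.87), found in replicate 2 at rank 606 and not in replicate 1.

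Of 34 neuropeptide genes on X, 0 had a strong start and 2 a weaker summit, nlp-76 (33.59) and flp-3 (18.17). The synaptic list had 0 of 9 with any pooled summit, potassium channels 0 strong of 19 with 1 weaker, homeobox genes of the ceh family 0 of 18 with 2 weaker, nuclear hormone receptors 0 of 26 with 11 weaker (1 strong in each replicate's own list) and chemoreceptors 0 of 33 with none. Any pooled peak stood at the start of 17.8% of all X coding genes. In these lists that share was 42.3% for nuclear hormone receptors, 11.1% for homeobox genes, 5.88% for neuropeptides and 5.26% for potassium channels. It was 0% in the synaptic and chemoreceptor lists. For strong summits, at the X background of 2.89%, a count of 0 in lists of this size says little, since 0 of 34 allows a share of up to 8.82%. None of the 49 germline and 63 sperm genes listed is on X, so polymerase at such genes could not be examined there. The 6 X genes of the dosage compensation list had no pooled summit at the start, against 6 of 8 on the autosomes. Over all coding genes, any pooled peak stood at the start of 17.8% on X and 32.7% on the autosomes. At the X share, a count of 0 among 6 genes says little. In the list of replicate 1, sdc-2 of these 6 had a summit at its start, at rank 8847.

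Of 4 heterochronic genes on X, 3 had weaker summits at their starts, lin-14 (32.08), mir-84 (19.93) and hbl-1 (12.76), each with a summit in replicate 1 and none in replicate 2. The fourth, daf-12, had none at its start in any list. It did hold a strong pooled summit (51.68) in an intron 1795 bp from the start, at rank 1432 in replicate 1 and without a match in replicate 2. Only 12 of the 79 genes were in any of the 38 lists, and 29 of the 79 had a sequence name alone. Others of known role were pdi-2, a protein disulfide isomerase (81.56), puf-9, a PUF-family RNA-binding protein (102.7), ftt-2, a 14-3-3 protein (91.7 at the start and 140.3 at the end), smf-1, a manganese transporter (54.59), asns-2, an asparagine synthetase (63.31), and tatn-1, tyrosine aminotransferase (56.65).

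X genes with a strong start were shorter and their starts richer in GC than other X genes. Their median length was 1926 bp (quartiles 893.5 to 3374.5), against 2995 bp for the 408 genes with only a weaker summit and 2504 bp for the 2244 with none. With each replicate's own strong peaks it was 1977 bp and 2029.5 bp. Their median exon number was 4, against 7 and 6. The window from 250 bases before to 50 after the start had a median GC content of 39.3% (38.3% and 40% with the replicates' own), against 37% and 35.7%. The distance upstream to the next coding gene was 1290 bp (1059 and 1531.5 bp with the replicates' own), against 1809 and 2199.5 bp. Genes with a 3- or 4-letter name, which usually means that they were studied, made up 63.3%, 60.8% and 46.6%. The quartile ranges of length, GC and upstream distance overlapped between the classes.

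Autosomal genes with a strong start had a median GC of 36%, against 34% for those with a weaker summit and 33.7% for those with none. Their median length was 1943 bp, below the 2476 bp of genes with a weaker summit and above the 1828 bp of those with none, while on X it was below both. Their upstream distance was 371 bp, and 35.6% followed a gene on the same strand within 500 bp, the arrangement found in operons, against 15.2% of the X genes with a strong start.

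The word GAGAGA, read on both strands within 100 bases of the summit (201 bases), was in 28.9% of strong X windows (23.03 to 35.5), 16.1% of weaker ones and 9.50% of windows spaced every 1000 bp along X. Strong windows of the replicates' own lists held it at 25.5% and 28.1%, and those of the autosomes at 26.05%. The repeat was thus as common at strong autosomal summits as on X, within the interval.

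The CACACA repeat, read in the same way, was in 26.9% of strong X windows (21.2 to 33.4), 12.6% of weaker ones and 9.45% of the spaced ones, and in 17.9% of strong autosomal windows. The replicates gave 25.1% and 20.1% on X, and 17.5% and 15.7% on the autosomes, so the X share was higher in both. In replicate 2 the interval of the X share (14.3 to 27.6) covers the autosomal share, and in replicate 1 (20.2 to 30.7) it does not. Spaced windows on the autosomes held the repeat at 8.23%. Of the 28 strong X summits outside genes, 50% had it. At coding starts it was in 34.2% of X genes with a strong summit, 19.6% of those with a weaker one and 19.1% of those with none, and in 16.5% of autosomal genes with a strong one.

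The word CGCAGGG, a core of sites that recruit the dosage compensation complex, was in 0.995% of strong X windows (0.273 to 3.56), 0.646% of weaker ones and 0.378% of the spaced ones, and the interval of the first covers the other two. On the autosomes it was in 0.638%, 0.454% and 0.320%. The median GC content of the X windows was 42.8%, 39.3% and 34.8%, so base composition moved with the shares of the GAGAGA and CACACA repeats, and its part in them was not tested.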

How the data were processed

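Peak lists of 2 AMA-1 ChIP-seq libraries were used. Derivation notes deposited by the authors trace a replicate's list to its own alignments with a control, the pooled list to those of the 2 libraries with a control, and the IDR set to these lists. The score, deposited with each peak, is the authors' caller's signal value. Which aligner, caller, filters and threshold were used is not given in the labels or files used here; the control was not analysed here and depth is unknown. Of the 2082 IDR peaks on ce11, 2082 were the strongest pooled peaks. Nearly all X peaks have 1 width per list (344, 350 and 330 bp in the pooled list, replicate 1 and replicate 2), so width was not used.

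Gene models came from Ensembl release 115 (WBcel235, the assembly of ce11) and sequences from RefSeq on WBcel235. A summit is the list's start plus its offset, 1-based. Shares carry Wilson intervals, computed with scipy 1.17.1, pandas 2.3.3 and numpy 2.4.6 in Python 3.11.15. The methods were tested on planted summits. Named genes are those of the 25 strongest X peaks, up to 3 X members of each list or RNA class, the 5 X genes with most strong summits and the 5 widest replicate differences; others were named after their values were seen. Members and lists were chosen with earlier results of these data known. Alternatives were the number of strong peaks, each replicate alone, the window, the starts used, the class order, the matching distance, ce10, and leaving out close summits; leaving out gene lists, any pooled peak and peaks at starts alone were added after the data were seen.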

Additional observations from a re-analysis of the deposited data

How the results depend on the processing

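Of 105 alternative values, 70 stayed within 1 SD between the replicates (n = 2) and 35 moved by more. For most results that SD came from the single-replicate values that are themselves among the alternatives, so part of the count was fixed in advance. For the matching shares it was the SD between the matches to replicate 1 and to replicate 2, 21.5 points, and all of those alternatives stayed within it. The count is therefore no measure of robustness. Each replicate alone gave the X share of strong peaks as 6.68% to 12.6%. The percent of X genes with a strong start was below the autosomal percent in all 11 settings, by 1.71 to 2.76 times. It was 1.35% with 1041 and 5.24% with 4164 strong peaks, 2.27% and 3.7% with windows of 250 and 1000 bp, 3.26% with every transcript start, 2.53% for lone starts, 17.8% for any pooled peak, and 2.34% to 2.82% in single replicates. The percent of X peaks that are strong was 2.93% with 1041, 12.03% with 4164 and 5.27% to 6.03% in single replicates. For position classes, starts moved to 48.3% (1000 bp window) and 24.4% (ends first), ends to 25.7% (1041 peaks) and 31.8% (ends first), and outside to 9.90% (1041 peaks), 17.9% (250 bp) and 8.96% (1000 bp). Starts were below the autosomal share in 9 of 10 settings and bodies above it in all 10. In single replicates starts ran from 28.5% to 42.5%, ends from 16.5% to 20.9%, bodies from 25.9% to 38.8% and outside from 11.8% to 15.1%. By length of X, the central share was 32.7% with 1041 peaks, the right 39.5% with 4164 and 35.2% without close summits; single replicates gave 27% to 34.5% on the left, 29.5% to 36.5% in the centre and 35.97% to 36.5% on the right. Median gene length was 1549 bp (1041 peaks), 2382 bp (4164), 1736 bp (250 bp), 2026 bp (1000 bp), 2287 bp (every start) and 1977 to 2029.5 bp in single replicates, below that of all other X genes in 8 of 8 settings, as GC was above it in 8 of 8. The upstream distance was 1813 bp with 1041 peaks, and 1059 to 1531.5 bp in single replicates. GC in single replicates was 38.3% to 40%. The ratio of the median strong signal on X to that on the autosomes was 1.00, 1.05 with 1041 peaks, 0.982 with 4164 and 0.956 to 0.985 in single replicates.

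The position along X on ce10 was not run, as no length of that assembly was at hand. No paired analysis was possible because there was 1 group. The score has no error of its own, depth is unknown, a summit can serve several starts, and overlapping genes on X cannot be told apart, since the peaks carry no strand. The 2 replicates give a rough SD, and the labels do not tell how they differ.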
